A study of Mus musculus with 88 samples.

Results

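Mx1, Mx2, Rsad2, Oasl1, Oasl2, Ifit1, Ifit2, Ifit3, Usp18 and Isg15 are antiviral effector genes that type I interferon switches on. These 10 genes were chosen by symbol, and their levels were followed in 4 tumours of the mouse that had been given carbon ions or gamma rays. The arrays measured 18067 genes by a probe that carries the symbol of that gene alone, and 9 of the 10 effector genes were among them, each with 1 probe. The only probe for Ifit3 also carries the symbol of its close copy Ifit3b, so Ifit3 has no value here. All 9 measured genes had values on all 88 arrays and passed the filter on dim genes. On mouse assembly GRCm38.p6, Mx1 (97447035 to 97462906) and Mx2 (97536081 to 97560901) lie side by side on chromosome 16, and Oasl1 (114923143 to 114937911) and Oasl2 (114896926 to 114912245) on chromosome 5. Ifit1 (34640889 to 34650009), Ifit2 (34550550 to 34576534) and Ifit3 (34583119 to 34588982) form a cluster on chromosome 19. Rsad2 lies on chromosome 12 (26442743 to 26456452), Usp18 on chromosome 6 (121245906 to 121270917) and Isg15 on chromosome 4 (156199424 to 156200818).

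As background, type I interferons (interferon alpha and beta) signal through the receptor Ifnar1 and Ifnar2 and the kinases Jak1 and Tyk2. Their signal activates ISGF3, a factor that holds Stat2 and Irf9 and binds the interferon-stimulated response element in the promoters of effector genes. The effectors act inside the cell. Mx1 and Mx2 are dynamin-like GTPases that block virus replication, and Rsad2 (viperin) is a radical SAM enzyme that makes a chain-terminating nucleotide. Oasl1 and Oasl2 are relatives of the 2'-5' oligoadenylate synthetases, and Ifit1, Ifit2 and Ifit3 are tetratricopeptide proteins, of which Ifit1 binds RNA caps that lack methylation. Isg15 is a ubiquitin-like protein that is joined to other proteins, and Usp18 removes it from them and also damps signalling at Ifnar2. In tumours, interferon signalling after radiation is known to follow the sensing of DNA in the cytosol by Cgas and Sting1.

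Promoter sequences of 3 members are shown because ISGF3 reaches such genes through its response element. Promoter entries in RefSeq (GRCm38.p6, 250 bases before to 50 after the start) were found for 7 of the 10 genes. Entries for Mx1, Mx2 and Usp18 were not used here. The core GAAANNGAAA and its reverse complement TTTCNNTTTC were searched on both strands, overlaps included. The core was present in 4 of the 7 genes (Isg15, Rsad2, Ifit1 and Ifit3) and was not found for Oasl1, Oasl2 and Ifit2. The 7 genes have 8 promoter entries. Over the same source 1131 of 32851 promoters of 300 bases held the core (3.44%), a count by entry and not by gene. The windows run from 160 to 41 bases before the start of the gene, 5' to 3' on its own strand, with each match in capitals.
Isg15, chr4:156200859-156200978, minus strand: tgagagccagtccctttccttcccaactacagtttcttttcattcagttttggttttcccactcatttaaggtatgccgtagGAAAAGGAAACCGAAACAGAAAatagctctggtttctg
Rsad2, chr12:26456493-26456612, minus strand: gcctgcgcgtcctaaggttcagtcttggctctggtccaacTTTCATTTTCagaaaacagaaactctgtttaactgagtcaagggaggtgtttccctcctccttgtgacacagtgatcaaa
Ifit1, chr19:34640729-34640848, plus strand: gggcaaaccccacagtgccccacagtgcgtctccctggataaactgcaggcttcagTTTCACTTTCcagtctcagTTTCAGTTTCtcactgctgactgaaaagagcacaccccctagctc
Isg15 held 3 overlapping matches, which began 78, 72 and 66 bases before the start. Rsad2 held 1 match, 120 to 111 bases before the start. Ifit1 held a pair, at 104 to 95 and at 85 to 76 bases. A match describes the letters and is not evidence of binding.

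The tumours were grown in the hind legs of C3H/HeNrs mice. NR-S1 and SCCVII are labelled as squamous cell carcinomas that arose without induction, NFSa as a fibrosarcoma of the same kind and #8520 as a fibrosarcoma induced by radiation. Tumours received 30 Gy of carbon ions, or 50 Gy or 30 Gy of gamma rays as the reference beam. RNA was sampled 6 h, 1 day or 3 days later. Each beam's arm had its own untreated tumours, which made 44 groups of 2 arrays, 32 arrays in the carbon arm and 56 in the gamma arm. The animals' ages and sexes are not in the labels used here, nor do the labels tie the 2 arrays in each group to different mice, so p-values reflect no more than the spread within these pairs. Each array holds RNA of tumour tissue, in which tumour and host cells are mixed.

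Levels are given as log2 of the deposited intensity, a brightness on a scale on which the median probe of every array lies near 1 (array medians 1.02 to 1.07), so that a log2 level of 0 is close to the median probe. The summed intensity of 6 epithelial markers was 815 to 1416 on the 4 untreated NR-S1 arrays, against 1.55 to 2.34 in SCCVII, 3.21 to 4.34 in NFSa and 1.98 to 2.22 in #8520. SCCVII, labelled a carcinoma, thus lacked epithelial marker signal in these arrays. A raised low end marked 8 arrays, those taken 1 or 3 days after 50 Gy of gamma rays from SCCVII and #8520: their 1st percentile of intensity was 0.297 to 0.378, while the other 80 arrays had 0.0128 to 0.134. The probes of Rsad2, Ifit2 and Isg15 belong to the dimmer 50% of genes, and the part of the raised low end in their values on those 8 arrays was not tested.

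The untreated tumours of the carbon and gamma arms were not alike, and each response is set against one of them. In NR-S1 all 9 members were higher in the carbon arm than in the gamma arm, by 0.76 to 2.33 log2 units, where 49.3% of all genes differed in either direction. Usp18 was at 4.08 and 4.33 in untreated NR-S1 of the carbon arm, against 1.83 and 1.91 in the gamma arm. In NFSa the order was turned round: 7 members were lower in the carbon arm, down to -1.80 for Usp18 (background 49.2%). In SCCVII 6 members were lower in the carbon arm, down to -0.77 (background 46.4%), and in #8520 only Ifit2 (0.49) and Usp18 (-0.49) differed (background 35.6%). Responses below are against the untreated tumours of the same tumour and arm, and where the mean of both arms' untreated tumours gives another picture, that value stands beside them.

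Averaged over both arms, untreated levels followed the tumour. Over the 4 untreated arrays of each tumour, Mx2 averaged 0.41 ± 1.20 in NR-S1, 0.63 ± 0.27 in SCCVII, 1.75 ± 0.41 in NFSa and 3.24 ± 0.16 in #8520 (SD, n = 4 each). Rsad2 averaged -1.73 ± 0.63 in NR-S1, -1.06 ± 0.32 in SCCVII, 0.48 ± 0.37 in NFSa and 1.46 ± 0.21 in #8520. By these means over both arms, #8520 was highest for 8 of the 9 members, NFSa next and the tumours labelled as carcinomas lowest. Isg15 departed from this order, at -0.53 ± 0.44 in NR-S1, -0.45 ± 0.25 in SCCVII and -0.52 ± 0.11 in NFSa. Those levels did not differ beyond their spread, and #8520 was at 0.23 ± 0.25. In the carbon arm alone the order did not hold for every gene. Oasl2 averaged 5.17 in NR-S1, 4.30 in SCCVII and 4.22 in NFSa there, while Rsad2 kept the order (-1.21, -1.25 and 0.18).

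All 9 members were lower in NR-S1 than in #8520, with differences from -3.19 for Rsad2 to -0.76 for Isg15 (background 74%). All 9 were also lower in SCCVII than in #8520 (background 59.6%) and in NFSa than in #8520 (background 53.9%). All but Isg15 were lower in NR-S1 than in NFSa (background 74.3%) and in SCCVII than in NFSa (background 62.8%). Between NR-S1 and SCCVII 6 members were called, all lower in NR-S1 (background 71%), while Ifit1 (0.03), Usp18 (0.14) and Isg15 (-0.08) did not pass. Since the tumours differed in more than 50% of all genes in each pair, a call by itself says little about these genes. The counts add a common direction of the means over both arms. Between NR-S1 and SCCVII or NFSa, it did not hold for every gene in the carbon arm. The plot of untreated levels also shows that the NR-S1 and NFSa averages join arms that lie far apart: Mx1 in NFSa was at 1.11 and 1.13 in the carbon arm, against 2.85 and 2.89 in the gamma arm.

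**Figure D1:**
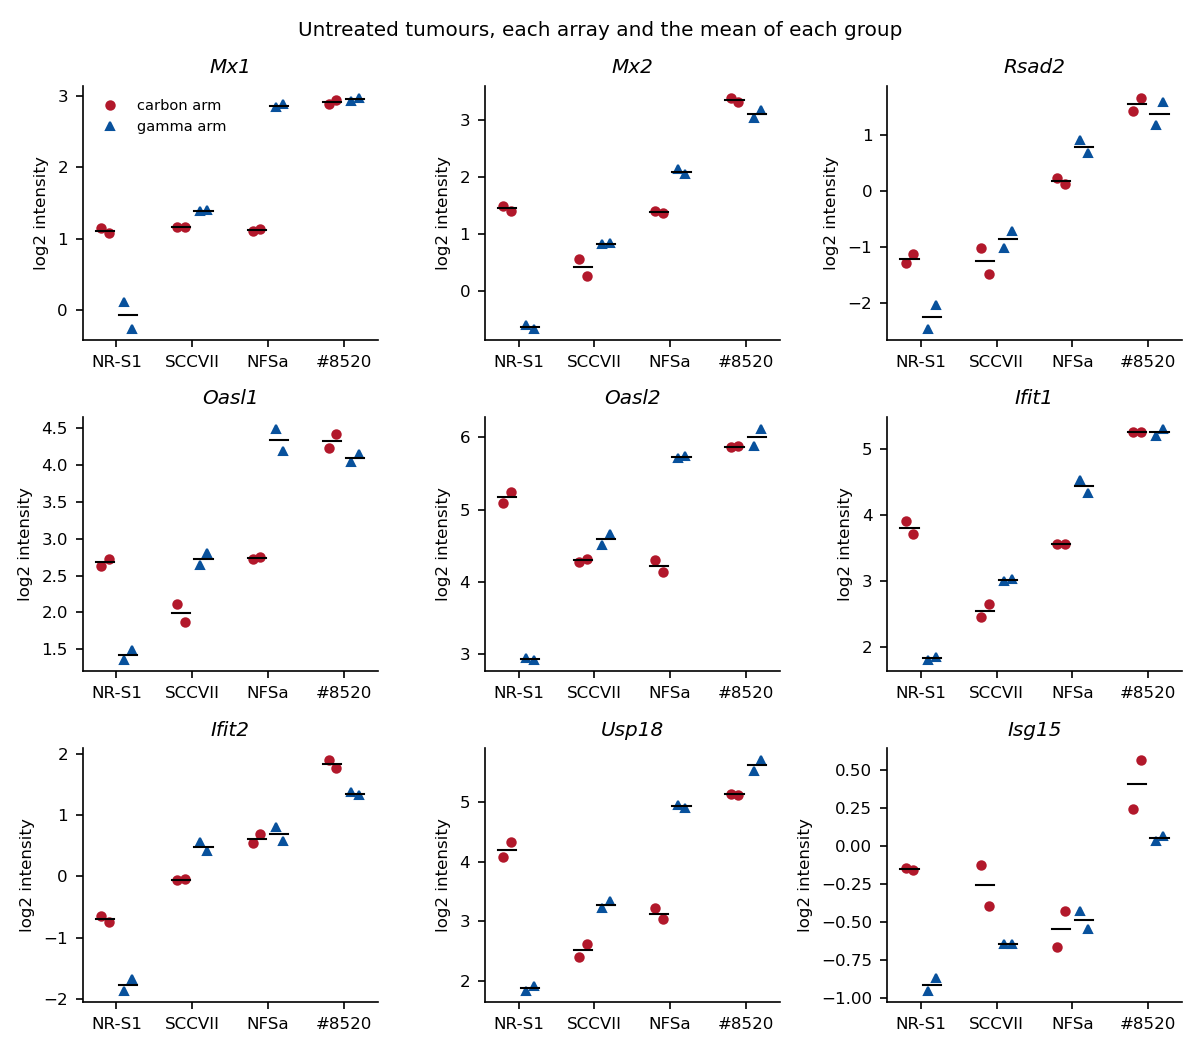
Level of the 9 measured effector genes in untreated tumours (log2 intensity, vertical axis, a scale of its own for each gene) by tumour (horizontal axis); circles are single arrays of the carbon arm, triangles of the gamma arm, and bars the mean of each pair. NR-S1 of the gamma arm has the lowest group mean for all 9 genes, and a #8520 group has the highest for 8 of them, with Oasl1 highest in NFSa of the gamma arm.

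At 6 h after irradiation the effectors had not risen as a group, and at the higher gamma dose they were below untreated tumours. Averaged over the 4 tumours, all 9 members fell after 50 Gy of gamma rays, with responses from -0.23 for Isg15 to -1.16 for Ifit2, with a median of -0.65 against -0.01 over all genes (background 26.9% lower, 22.8% higher). After 30 Gy of gamma rays 6 members fell and Mx1 rose (0.29 ± 0.067 SE, adjusted p = 0.00042), with a median of -0.21 (background 18.4% lower, 19.3% higher). After 30 Gy of carbon ions 4 members rose, Mx1 (0.77 ± 0.067 SE, adjusted p = 2.6e-14), Oasl1 (0.39), Mx2 (0.35) and Usp18 (0.32), and Ifit2 fell (-0.38 ± 0.054 SE, adjusted p = 5.4e-08), with a median of 0.14 (background 21% higher, 19.5% lower). The fall after 50 Gy was smaller without #8520, when 6 members fell, Ifit2 by 0.65 on the log2 scale, and Mx1 was at 0.032, Usp18 at -0.17 and Isg15 at -0.093 without passing. Without NFSa 8 fell, all but Mx1 (-0.007). Without SCCVII 2 members rose and 3 fell after carbon ions, and without #8520 3 rose and 1 fell after 30 Gy of gamma rays. Against the untreated tumours of both arms 6 rose and 1 fell after carbon ions. The gamma responses at both doses share their untreated arrays.

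These averages joined tumours that moved in opposite directions. In #8520 after gamma rays all 9 members fell at both doses, Rsad2, Ifit1 and Ifit2 the most. Rsad2 in #8520 was at -1.02 and -0.93 after 50 Gy and -0.51 and -0.55 after 30 Gy, against 1.18 and 1.58 in untreated tumours. Every irradiated array lay below every untreated one, and the responses were -2.35 ± 0.16 (SE, adjusted p = 5e-19) and -1.91 ± 0.16 (SE, adjusted p = 4.8e-15). Ifit1 in #8520 stood at 2.90 and 2.85 after 50 Gy and 3.48 and 3.60 after 30 Gy, against 5.20 and 5.32 untreated, again with no overlap. The fall of all 9 members compares with 37.5% of all genes lower after 50 Gy and 24.1% after 30 Gy, and all 9 also fell at both doses against the untreated tumours of both arms. Carbon ions changed few members in #8520: Ifit1 (-0.32) and Ifit2 (-0.53) fell (background 18.2%), and the other 7 did not pass; against both arms 1 rose and 3 fell.

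In NFSa the gamma doses went apart. After 50 Gy 8 members fell, with responses from -1.11 for Oasl1 to -1.60 for Rsad2 (background 10.9%), and Isg15 at -0.24 did not pass. After 30 Gy 4 members rose, Usp18 (0.56), Mx2 (0.51), Mx1 (0.48) and Ifit1 (0.39) (background 9.21%). Mx1 was at 1.28 and 1.56 after 50 Gy and 3.25 and 3.44 after 30 Gy, against 2.85 and 2.89 untreated, so that the 3 groups did not overlap. After carbon ions Oasl1 (0.82), Oasl2 (0.75), Mx1 (0.72) and Usp18 (0.55) rose in NFSa (background 23.8%) and Ifit2 fell (-0.60). That rise turned with the baseline: against both arms' untreated tumours none rose and 6 members fell in NFSa after carbon ions, with a median of -0.35, and 8 rose after 30 Gy of gamma rays. In NFSa the arm and the beam cannot be told apart.

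In SCCVII carbon ions and gamma rays at 30 Gy gave opposite early responses. After carbon ions 7 members rose at 6 h, all but Ifit2 (0.21) and Isg15 (0.02), where 9.89% of all genes were higher. Mx1 in SCCVII was at 2.83 and 2.87 at 6 h, against 1.17 and 1.16 untreated, a response of 1.69 ± 0.13 (SE, adjusted p = 8.2e-15). Ifit1 was at 4.24 and 4.12, against 2.46 and 2.64 untreated, a response of 1.63 ± 0.11 (SE, adjusted p = 4.6e-17). Neither gene's arrays overlapped, and 7 members also rose against the untreated tumours of both arms. After 30 Gy of gamma rays 7 members fell in SCCVII, down to -0.99 for Ifit1 (background 6.48%), and after 50 Gy Oasl1 (-0.40), Ifit1 (-0.38) and Ifit2 (-0.52) fell (background 9.71%). Against both arms 7 members also fell after 30 Gy, but after 50 Gy Mx2 (0.34) and Usp18 (0.37) rose and Ifit2 alone fell (-0.25).

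In NR-S1 the direction at 6 h turned with the untreated arm used. Against their own arm, 5 members fell after carbon ions, down to -1.18 for Oasl2 (background 15.2%), while 6 rose after 30 Gy of gamma rays (background 11.1%) and 4 after 50 Gy (background 12%). Against the untreated tumours of both arms the signs turned: 6 members rose and none fell after carbon ions, with a median of 0.43, 6 fell and 1 rose after 30 Gy of gamma rays, and 7 fell and 1 rose after 50 Gy. The arm and the beam cannot be told apart there. Mx1 rose in NR-S1 at 6 h after each treatment with either baseline: its response was 0.57 to carbon ions, 1.41 to 50 Gy and 1.67 to 30 Gy of gamma rays against its own arm, and 1.16, 0.82 and 1.08 against both arms. Its levels at 6 h were 1.73 and 1.63 after carbon ions, 1.31 and 1.35 after 50 Gy and 1.56 and 1.63 after 30 Gy of gamma rays, against 1.14 and 1.08 in untreated tumours of the carbon arm and 0.12 and -0.27 in those of the gamma arm. All 6 irradiated arrays lay above all 4 untreated ones.

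**Figure D2:**
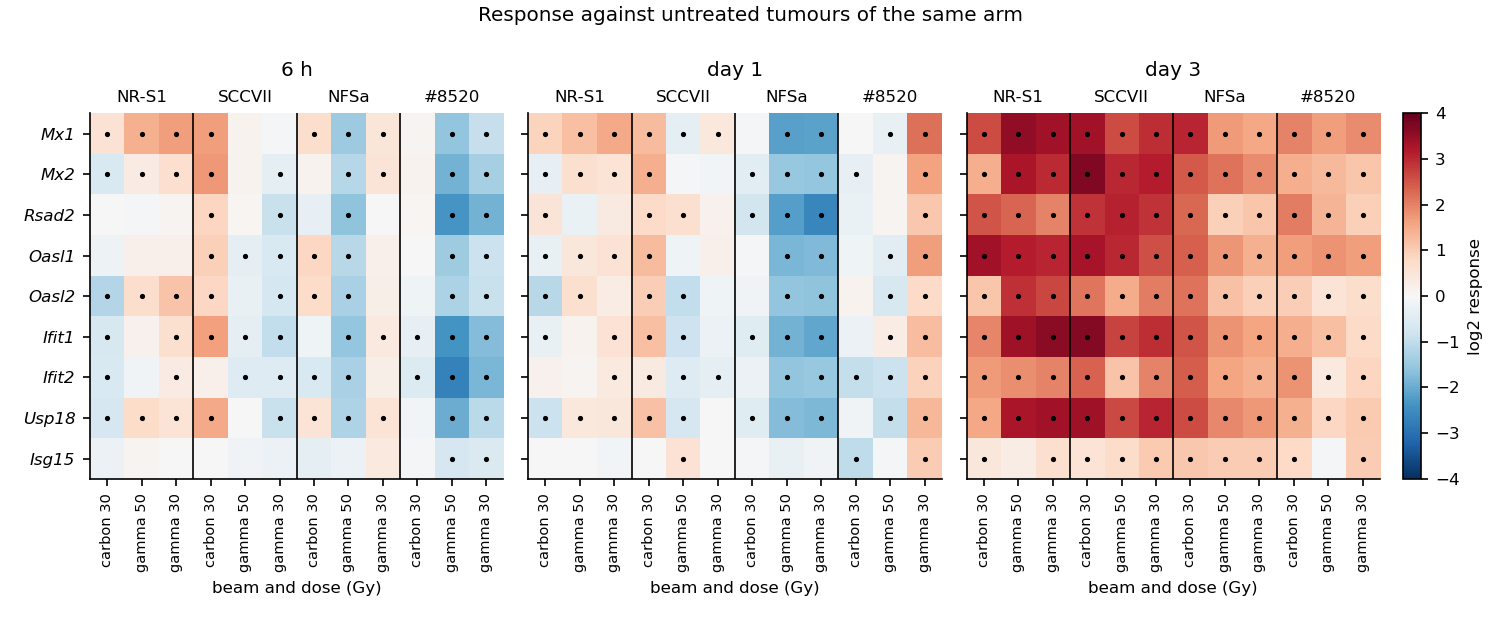
Response of each effector gene (rows, as symbols) as log2 irradiated minus log2 untreated of the same tumour and arm (colour), by time (panels), tumour and beam with dose in Gy (columns); dots mark values that passed at an adjusted p under 0.05. Signs are mixed at 6 h and day 1, from -2.69 for Ifit2 in #8520 at 6 h after 50 Gy to 2.21 for Mx1 in #8520 at day 1 after 30 Gy of gamma rays, and at day 3 values run from -0.04 to 3.71.

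At day 1 the response to 30 Gy of gamma rays ranged from a strong fall in NFSa to a strong rise in #8520. In #8520 all 9 members rose, by 0.76 for Oasl2 to 2.21 for Mx1 (background 17.8%). Mx1 in #8520 was at 5.05 and 5.27, against 2.93 and 2.98 untreated, a response of 2.21 ± 0.13 (SE, adjusted p = 5e-20). Usp18 was at 6.99 and 6.92, against 5.53 and 5.72. These #8520 arrays, taken after 30 Gy, gave the highest group mean of day 1 for every member. In NFSa 8 members fell, with responses from -1.50 for Ifit2 to -2.59 for Rsad2 (background 8.97%). Rsad2 in NFSa was at -1.89 and -1.72 after 30 Gy, against 0.90 and 0.68 untreated. The count of calls in NFSa and in #8520 was the same against both arms' untreated tumours. The labels number the gamma arrays of day 1 apart from those of the other times, and do not say why.

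After 50 Gy the NFSa fall was as large at day 1, with 8 members lower and responses from -1.52 for Mx2 to -2.21 for Rsad2 (background 9.13%). #8520 did not show the rise seen after 30 Gy. There 5 members fell, the most Usp18 at -0.95, not far from the background of 44.1%, and Ifit1 rose (0.30). The members' median in #8520 was -0.302, against -0.173 over all genes. In SCCVII 5 members fell after 50 Gy, close to the background of 46.9% and with the median of all genes itself at -0.22, while Rsad2 (0.65) and Isg15 (0.59) rose. Both are dim probes, and the 50 Gy arrays of SCCVII and of #8520 at day 1 are among those with the raised low end. In SCCVII after 30 Gy Mx1 rose (0.43) and Ifit2 fell (-0.34). Against both arms 4 members rose there, Oasl1 (0.56), Mx1 (0.54), Usp18 (0.38) and Rsad2 (0.38), and Ifit2 (-0.07) did not pass. After 50 Gy 3 rose and 4 fell in SCCVII against that baseline.

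Over the 4 tumours these opposite responses largely cancelled after 30 Gy of gamma rays, where 4 members rose and 3 fell (background 21.2% higher, 21.7% lower). Leaving out NFSa gave 9 risen and none fallen, and leaving out #8520 gave none risen and 7 fallen. Leaving out any 1 of the 16 arrays compared left 2 or 3 risen and 1 to 4 fallen. After 50 Gy 8 members fell, with responses from -0.21 for Mx2 to -0.73 for Usp18, where 45.1% of all genes were lower and 23.1% higher. Without NFSa 3 members fell and 1 rose.

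Carbon ions at day 1 kept the early rise in SCCVII, where 8 members were higher, by 0.37 for Ifit2 to 1.45 for Mx2 (background 17.8%). Mx2 in SCCVII was at 1.79 and 1.94, against 0.57 and 0.26 untreated, with no overlap. In NFSa Rsad2 (-0.72), Usp18 (-0.50), Ifit1 (-0.49) and Mx2 (-0.42) fell (background 6.99%), and against both arms 8 members fell. In #8520 Isg15 (-1.02), Ifit2 (-0.97) and Mx2 (-0.34) fell (background 18.5%). In NR-S1 5 members fell against their own arm (background 16.4%) and Mx1 (0.88) and Rsad2 (0.50) rose, but against both arms 7 rose and none fell. For gamma rays in NR-S1, 5 members rose after 50 Gy (background 10.5%) and 6 after 30 Gy (background 8.02%) against their own arm, and against both arms 7 and 5 fell, with Mx1 alone risen at each dose. Over the 4 tumours Mx1 (0.51) and Oasl1 (0.19) rose and Ifit2 (-0.17) and Isg15 (-0.27) fell after carbon ions, shares near those of all genes (background 25.5% higher, 16.6% lower). Without SCCVII 1 member rose and 7 fell.

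At day 3 the effectors were higher in all 4 tumours after each beam and dose, with 2 exceptions among 108 values. All 9 members rose over the 4 tumours, after carbon ions by 0.71 to 2.75 (background 26.4% higher, 41.8% lower). After 50 Gy of gamma rays the range was 0.50 to 2.44 (background 28.7% higher, 44.7% lower) and after 30 Gy 0.94 to 2.43 (background 23.1% higher, 30.9% lower). The members' medians were 2.27, 2.17 and 2.18 in that order, against -0.08, -0.08 and -0.02 over all genes. Taken tumour by tumour, 106 of the 108 values had risen and none had fallen, where 19.5% of all gene tests were called higher. The exceptions were Isg15 after 50 Gy in NR-S1 (0.30, adjusted p = 0.15) and in #8520 (-0.04, adjusted p = 0.83). Against the untreated tumours of both arms 8 members rose in NR-S1 after each gamma dose and 7 in #8520 after 50 Gy, and all 9 in the other tumours and treatments. In 106 of the 108 pairs both day 3 arrays lay above both untreated arrays of the arm, and in 104 above all 4 untreated arrays of the tumour. In a bulk tumour, more cells of a type and more RNA per cell cannot be told apart.

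The size of the rise at day 3 depended on the tumour. Mx2, a GTPase, was at 4.15 and 4.11 in SCCVII after carbon ions, against 0.57 and 0.26 untreated, the largest of the 108 responses (3.71 ± 0.10 SE, adjusted p = 4.2e-34). In #8520, where its untreated level was highest, Mx2 was at 4.78 and 4.88, against 3.40 and 3.33, a response of 1.47 ± 0.10 (SE, adjusted p = 2.1e-17). The cap-binding Ifit1 in NR-S1 was at 5.28 and 5.13 after 50 Gy and 5.57 and 5.30 after 30 Gy of gamma rays, against 1.80 and 1.85 untreated. No day 3 array of these genes overlapped its untreated arrays.

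By median over the 9 members, the day 3 response to carbon ions was 1.71 in NR-S1, 3.29 in SCCVII, 2.43 in NFSa and 1.47 in #8520. After 50 Gy of gamma rays the medians were 3.14, 2.64, 1.69 and 1.20 in the same tumours, and after 30 Gy 3.00, 2.89, 1.43 and 1.02. Against its own arm NR-S1 ranked below SCCVII and NFSa after carbon ions and highest after gamma rays, and it is the tumour in which all 9 members differed between the untreated arms. This ranking turned with the baseline. Against both arms the medians in the same order of tumours were 2.73, 2.92, 1.99 and 1.59 for carbon ions, 2.11, 2.95, 2.24 and 1.17 for 50 Gy, and 1.96, 3.07, 2.02 and 0.85 for 30 Gy of gamma rays, so that NR-S1 lay above NFSa after carbon ions and below SCCVII and NFSa after gamma rays. SCCVII was highest and #8520 lowest after each treatment with that baseline. Over the 4 tumours Isg15 had the smallest mean response of the 9 after each treatment, on a probe near the median brightness of the arrays.

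**Figure D3:**
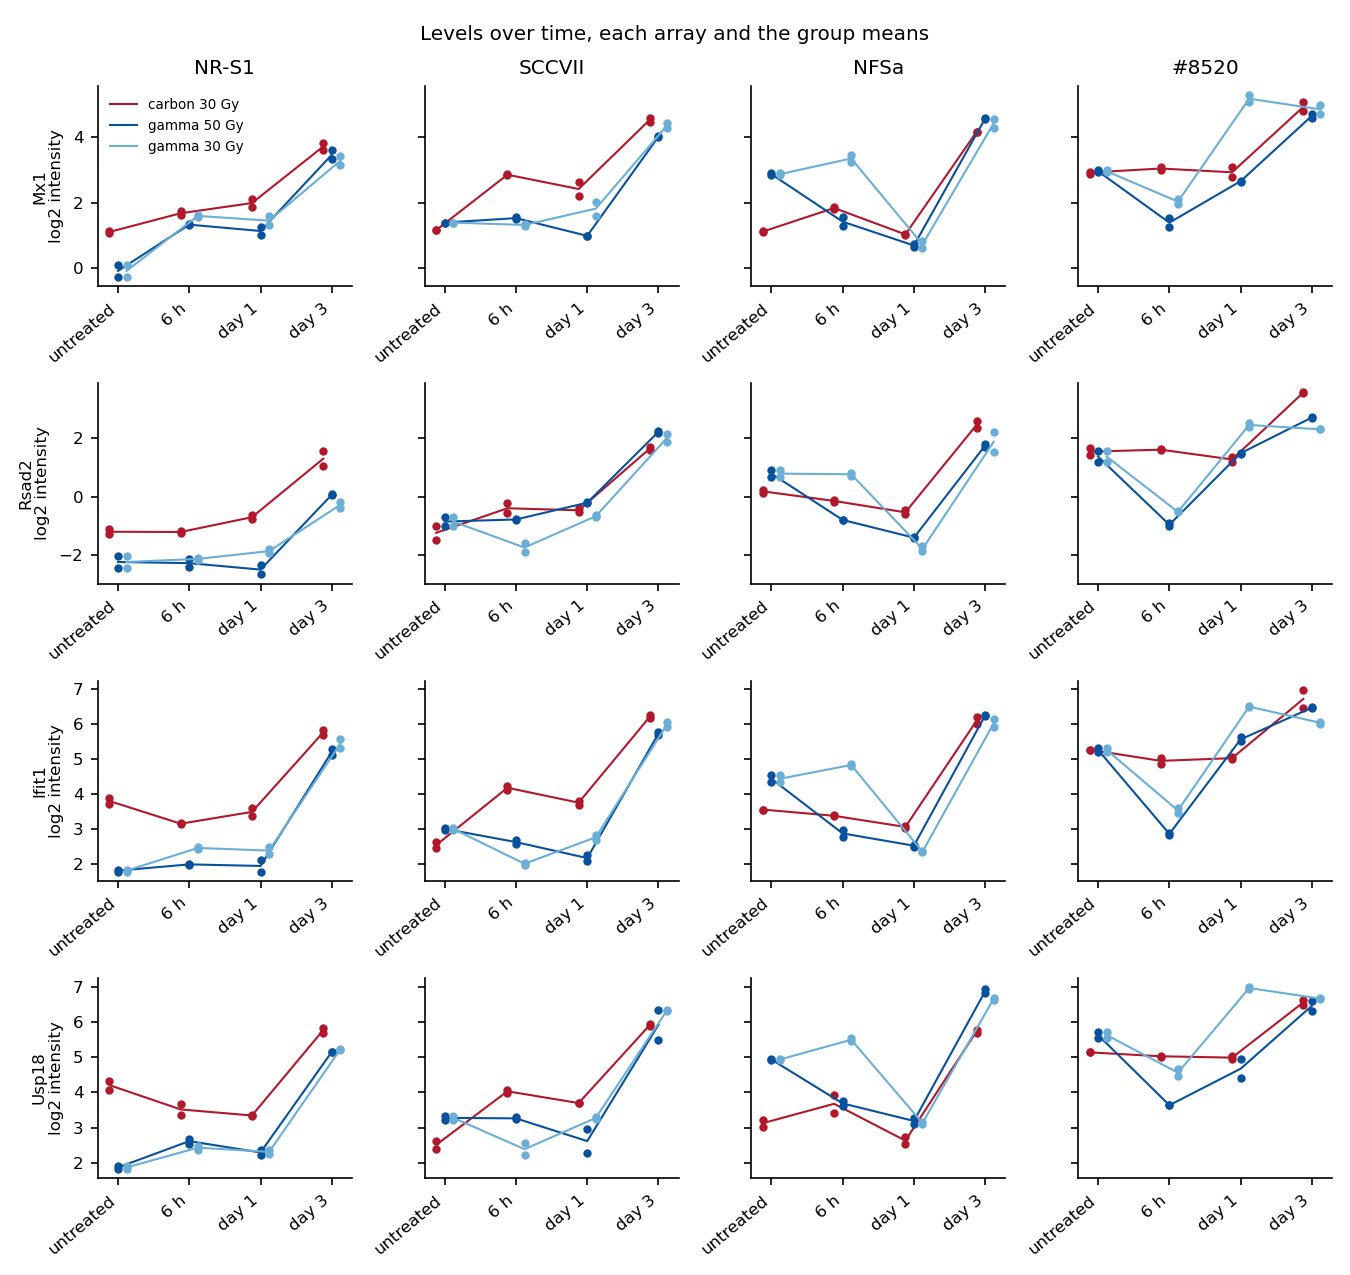
Level of Mx1, Rsad2, Ifit1 and Usp18 (rows, log2 intensity) in untreated tumours and at 6 h, day 1 and day 3 (horizontal axis) in each tumour (columns); points are single arrays and lines join group means for carbon ions at 30 Gy, gamma rays at 50 Gy and gamma rays at 30 Gy, and the gamma doses share their untreated arrays. Mx1 in #8520 after 30 Gy of gamma rays dips to 1.96 and 2.11 at 6 h and reaches 5.05 and 5.27 at day 1, while in NFSa the means after both gamma doses lie lowest at day 1.

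Levels at day 3 lay closer together than those of untreated tumours. For 7 of the 9 members the span between the lowest and highest group mean was smaller over the 12 day 3 groups than over the 8 untreated groups, although more groups were compared. Oasl2 spanned 1.27 log2 units at day 3, from 5.62 in NR-S1 after 30 Gy of gamma rays to 6.89 in NFSa after 50 Gy, against 3.07 in untreated tumours, the largest ratio of spans (2.41). Ifit1 spanned 1.51 at day 3, against 3.44 untreated. Rsad2 (3.87 at day 3, 3.80 untreated) and Isg15 (1.81 at day 3, 1.32 untreated) were the exceptions, with spans that were not smaller. The lowest group was NR-S1 of the gamma arm for every member both untreated and at day 3, and the highest was #8520 or NFSa. This spread is a description of group means, with no test.

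**Figure D4:**
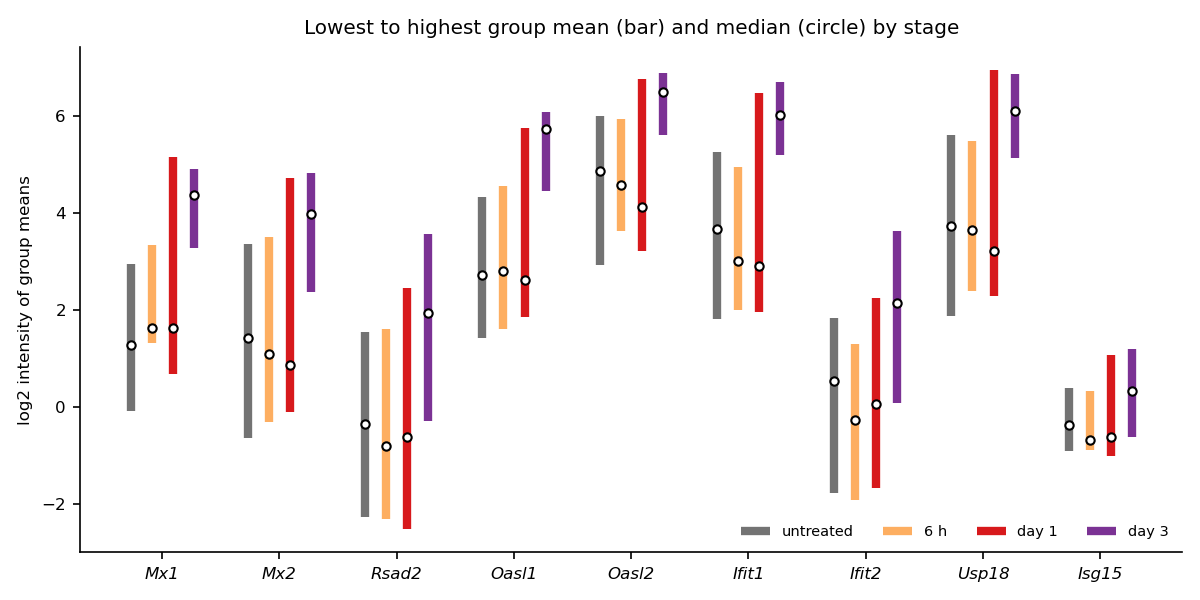
Range of group means (log2 intensity, vertical axis) of each effector gene in the 8 untreated groups and the 12 groups each at 6 h, day 1 and day 3; bars run from the lowest to the highest group mean and circles mark the median. Medians are highest at day 3, and the day 3 bars are shorter than untreated bars for 7 genes, while day 1 bars are the longest for all 9.

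Because the untreated arrays cancel, the difference between day 3 and 6 h does not depend on the arm's baseline. It was positive for all 9 members over the 4 tumours: 0.87 to 2.46 for carbon ions (background 21.5%), 0.74 to 3.31 for 50 Gy (background 26.7%) and 1.04 to 2.65 for 30 Gy of gamma rays (background 17.2%). In single tumours every value passed except Isg15 after 50 Gy in NR-S1 (0.19, adjusted p = 0.42). Usp18, the Isg15 protease, was at 6.34 and 6.31 at day 3 in SCCVII after 30 Gy of gamma rays, against 2.22 and 2.57 at 6 h, a difference of 3.93 ± 0.16 (SE, adjusted p = 3.3e-27). Its 6 h arrays lay below the untreated arrays (3.22 and 3.34), so the level was lowest at 6 h.

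The dose comparison is also free of the baseline. At 6 h 8 members were lower after 50 Gy than after 30 Gy over the 4 tumours, with differences from -0.30 for Rsad2 to -0.72 for Ifit2, and Isg15 (-0.13) did not pass (background 27.1%). NFSa gave the largest differences, all 9 lower with differences from -0.62 to -1.95 (background 8.28%), followed by 8 lower in #8520, the most Usp18 at -0.92 (background 22.7%). SCCVII went the other way, with 5 members higher after 50 Gy, by 0.40 for Oasl2 to 0.97 for Rsad2 (background 4.99%). Rsad2 in SCCVII at 6 h was at -0.78 and -0.80 after 50 Gy, against -1.90 and -1.62 after 30 Gy.

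At day 1 8 members were lower after 50 Gy over the 4 tumours, with differences from -0.19 to -0.92 (background 62.8%, in either direction). #8520 had the largest differences, all 9 lower, from -0.93 for Ifit1 to -2.51 for Mx1 (background 39%). Mx1 in #8520 was at 2.64 and 2.67 after 50 Gy, against 5.05 and 5.27 after 30 Gy. In NFSa no member differed between the doses at day 1 at an adjusted p under 0.05, with values of -0.16 to 0.39. At day 3, over the 4 tumours, Mx2 (0.16), Rsad2 (0.21) and Oasl1 (0.24) were higher after 50 Gy and Ifit2 (-0.32) and Isg15 (-0.44) lower, a share of members near the background of 59.5%. In SCCVII 6 members differed at day 3, Oasl1 higher after 50 Gy (0.43) and 5 lower, the most Ifit2 (-0.83 ± 0.11 SE, adjusted p = 2.8e-09). That share is near the background of 68.9% in either direction, and the members' median was -0.295, against -0.272 over all genes. In #8520 Ifit1 (0.43) and Rsad2 (0.41) were higher and Isg15 (-1.07 ± 0.16 SE, adjusted p = 3e-07) and Ifit2 (-0.45) lower after 50 Gy. These 4 of 9 members are a share below the background of 55.1%. Values ran from -0.38 to 0.35 in NR-S1 and from -0.13 to 0.33 in NFSa, and those did not pass. At both of these times the 50 Gy arrays of SCCVII and #8520 are those with the raised low end.

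Between the beams at 30 Gy the early responses differed by tumour. A baseline of both arms' untreated tumours cancels between the beams, so it compares irradiated levels of the arms and not responses. Such a difference in irradiated level carries any difference between the arms. At 6 h the response to carbon ions exceeded that to gamma rays for 6 members over the 4 tumours, by 0.48 for Mx2 to 0.82 for Rsad2 (background 15.9% in either direction). It was largest in SCCVII, where 8 members were higher by 0.73 to 2.63 (background 4.17%), and also seen in #8520, where 8 were higher by 0.72 to 1.97 (background 10.1%). In NR-S1 6 members were lower (background 7.63%), while 6 were higher in irradiated level. In NFSa signs were mixed in the response, and all 9 members were lower in irradiated level. By irradiated level all 9 were higher over the 4 tumours and 8 in SCCVII.

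At day 1 the beams differed most in #8520, where all 9 members responded less to carbon ions, with differences from -0.62 for Oasl2 to -2.20 for Mx1 (background 8.26%). Isg15 there was at -0.54 and -0.70 after carbon ions and 1.12 and 1.02 after gamma rays, against 0.24 and 0.57 in untreated tumours of the carbon arm and 0.03 and 0.07 in those of the gamma arm. In NFSa 8 members responded more to carbon ions, where they had fallen after gamma rays (background 7.85%), and in SCCVII 7 (background 7.88%). In NR-S1 6 members responded less to carbon ions (background 6.68%), while irradiated levels of all 9 were higher in the carbon arm. Untreated NR-S1 of the carbon arm was also higher for all 9, by 0.76 to 2.33. In irradiated level 4 members in NFSa were higher and 1 lower. The mean response over tumours differed for 2 members, Rsad2 (0.31) and Isg15 (-0.46) (background 25.1%), and the mean irradiated level for 8 members.

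At day 3 the response to carbon ions was larger for Rsad2 (0.71 ± 0.11 SE, adjusted p = 5.1e-07), Ifit2 (0.51), Oasl1 (0.50) and Mx1 (0.32), a share near the background of 36%. NFSa had 8 members higher after carbon ions, by 0.55 to 1.48 (background 9.26%), but 2 higher and 2 lower in irradiated level. In NR-S1 5 members were lower (background 21.2%), while all 9 were higher in irradiated level. In SCCVII Oasl1 (0.71), Ifit1 (0.69) and Mx2 (0.56) were higher (background 10%). In irradiated level none of the 9 was called higher there and 2 were lower. In #8520 Rsad2 (1.10), Ifit2 (0.96) and Ifit1 (0.67) were higher after carbon ions, where 545 of 13440 genes were higher. By irradiated level 4 members in #8520 were higher and none lower. The Rsad2 response in NR-S1 was larger after carbon ions (0.55). Its irradiated level was 1.59 higher in the carbon arm, where its untreated level was 1.04 higher.

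Whether the carbon-ion response differed between the 4 tumours was tested with a moderated F test. At 6 h 8 of the 9 members differed, all but Isg15 (adjusted p = 0.51; background 45%), at day 1 all 9 (background 58.3%) and at day 3 8, again without Isg15 (adjusted p = 0.076; background 61.9%).

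The members moved together across the study. Over the 44 group means, Pearson's r between members other than Isg15 was 0.85 to 0.98 (28 pairs, median 0.94), highest for Mx2 with Ifit1 and lowest for Ifit2 with Usp18. With Isg15 it was 0.81 to 0.86 (8 pairs, median 0.83). The group means share tumours, arms and arrays, so these values describe the groups only. The 8 other named genes whose responses were most like the members' mean, over 36 responses and 13338 genes ranked, were Ifih1 (r = 0.976), Irf7 (0.971), Oas3 (0.970), Oas1b (0.967), Trim34a (0.965), Ddx60 (0.964), Oas1a (0.964) and Oas2 (0.961). The 36 responses share untreated arrays and the mean itself is made from the members, so the ranking describes likeness only.

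The rest of the pathway was read from lists of genes by role. Of the interferon genes themselves 10 of 18 had a probe and only Ifna9 and Ifnl3 passed the filter, so the ligands were mostly not followed here. Ifna9 rose at day 3 after carbon ions (0.43) and Ifnl3 was at -0.12. Ifnb1 lay below the filter. Of the receptor and ISGF3 genes, 6 were measured: at day 3 after carbon ions Stat2 (1.30), Irf9 (0.73), Tyk2 (0.58) and Ifnar1 (0.15) rose, Ifnar2 fell (-0.47), and Jak1 was at 0.01. Stat2 (-0.77) and Irf9 (-0.35) fell at 6 h after 50 Gy, as the members did.

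Among the interferon regulatory factors 4 of 5 genes rose and 1 fell (median 0.56) at day 3 after carbon ions. At that point 26.4% of all genes were higher and 41.8% lower, the background for each list in this paragraph. Irf7, which drives interferon alpha genes, rose by 2.23, and Irf8 by 1.57. Of the nucleic acid sensing genes 9 of 13 genes rose and 2 fell (median 0.80). The nucleic acid sensors Zbp1 (1.94) and Tlr7 (1.56) and the RNA sensor Ifih1 (1.39) rose, while Cgas (-0.24) fell. Isg15 conjugation has its own enzymes, and all 4 listed rose at day 3 after each treatment (background 28.7% higher after 50 Gy, 23.1% after 30 Gy of gamma rays). After carbon ions the activating enzyme Uba7 rose by 1.55, the conjugating enzyme Ube2l6 by 1.47, the ligase Herc6 by 1.39 and Trim25 by 0.40. Uba7 (-0.77), Ube2l6 (-0.89) and Herc6 (-0.88) fell at 6 h after 50 Gy (background 26.9% lower). Of the negative regulators 5 of 5 genes rose and 0 fell (median 0.89), with the DNA exonuclease Trex1 (1.62) and Socs1 (0.92) highest.

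Of 41 other antiviral effectors listed, 31 were tested. At day 3 after carbon ions 25 of 31 genes rose and 1 fell (median 1.21), where 26.4% of all genes were higher and 41.8% lower, led by Oas2 (2.24) and Oas3 (2.18), synthetases of the messenger that activates RNase L. After 50 Gy 27 of 31 genes rose and 1 fell (median 0.89, background 28.7% higher, 44.7% lower). After 30 Gy of gamma rays 27 of 31 genes rose and 1 fell (median 0.93, background 23.1% higher, 30.9% lower). At 6 h after 50 Gy 3 of 31 genes rose and 23 fell (median -0.41, background 22.8% higher, 26.9% lower). The only Ifit gene outside the 10 with a probe of its own, Ifit1bl2, rose by 1.48 at day 3 after carbon ions.

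A list of 12 genes, called interferon gamma targets here, holds genes known chiefly as such targets and also the receptor genes Ifngr1 and Ifngr2. It shared some of these changes and not others. All 12 fell at 6 h after 50 Gy (median -1.04) and at day 1 after 50 Gy (-1.43) and 30 Gy of gamma rays (-1.27), and all 12 rose at day 3 after carbon ions (1.56), Gbp8 by 3.24. The shares of all genes lower were 26.9%, 45.1% and 21.7% in that order, and 26.4% were higher at day 3 after carbon ions. After gamma rays at day 3 9 of 12 genes rose and 3 fell (median 0.65) at 50 Gy (background 28.7% higher, 44.7% lower). At 30 Gy 9 of 12 genes rose and 3 fell (median 0.24, background 23.1% higher, 30.9% lower). In #8520 at day 1 after 30 Gy of gamma rays, where all 9 members rose, 1 of 12 genes rose and 11 fell (median -0.76). There 17.8% of all genes were higher, and 3661 of 13440 were lower. In NFSa at the same point all 12 fell with the members (median -3.19, background 8.97% lower).

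**Figure D5:**
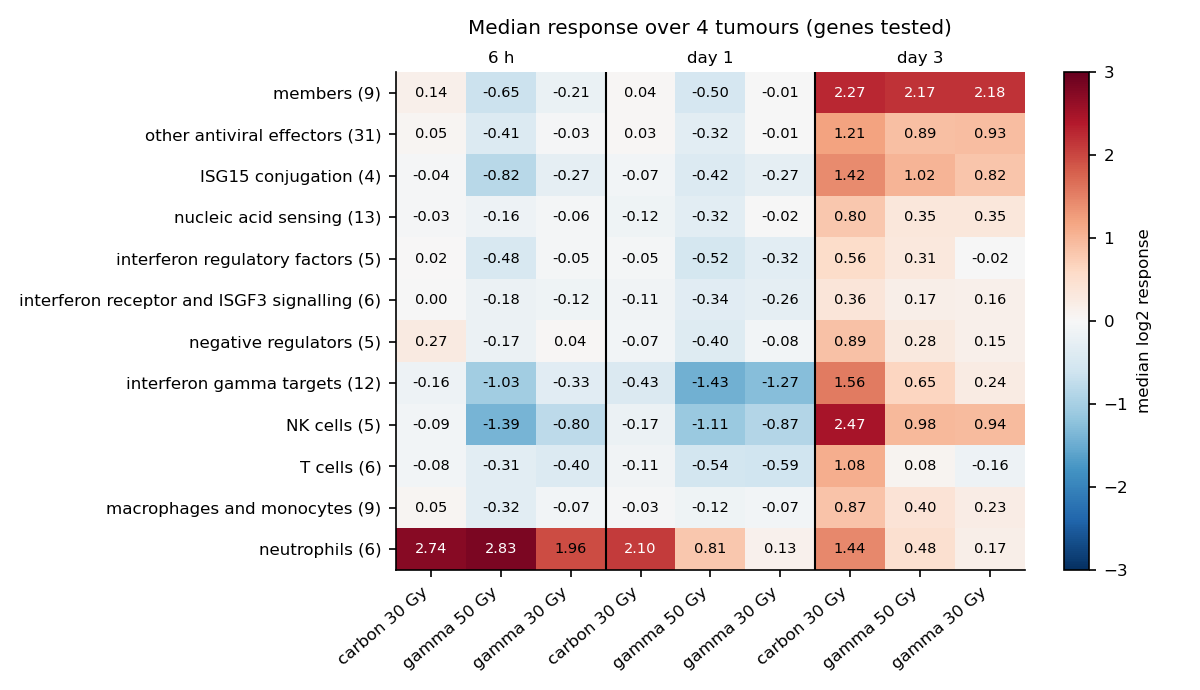
Median log2 response over the 4 tumours (colour and printed value) of the measured effector genes, pathway lists and cell type markers (rows, number of genes tested in brackets) by time, beam and dose (columns). The effector genes have medians of 2.17 to 2.27 at day 3, interferon gamma targets and NK cell markers reach 1.56 and 2.47 after carbon ions and less after gamma rays, and neutrophil markers are highest at 6 h. The interferon gamma targets include the receptor genes Ifngr1 and Ifngr2.

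Markers of immune cells moved with some of these changes, and their part in the results was not tested. Of the natural killer (NK) cell markers tested 5 of 5 genes rose and 0 fell (median 2.47) at day 3 after carbon ions (background 26.4% higher). The summed intensity of the 7 NK markers was 37 to 106 (median 57.3) on those 8 arrays, against 2.29 to 74.8 (median 17.7) on the 16 untreated arrays. Klrb1c and Klra8 lay below the filter. At day 3 it was 8.09 to 67.1 (median 54.4) after 50 Gy and 5.27 to 100 (median 48.3) after 30 Gy of gamma rays. All 5 NK markers tested fell at 6 h after 50 Gy (median -1.39) and after 30 Gy of gamma rays (-0.80), and in NFSa at day 1 after 30 Gy (-2.19). The shares of all genes lower were 26.9%, 18.4% and 8.97% in that order. In #8520 at day 1 after 30 Gy none of the 5 rose (median 0.04, background 17.8% higher), while the members rose.

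Of the T cell markers 6 of 6 genes rose and 0 fell (median 1.09) at day 3 after carbon ions, and none rose and 3 fell after 30 Gy of gamma rays (median -0.16). The background at day 3 after carbon ions, for each marker list over the 4 tumours, was 26.4% higher and 41.8% lower. After 30 Gy of gamma rays it was 23.1% higher and 30.9% lower. Of the macrophage and monocyte markers 7 of 9 genes rose and 0 fell (median 0.87) at day 3 after carbon ions, with a summed intensity of 570 to 1082 (median 739) against 144 to 735 (median 520) untreated. In SCCVII at day 3 after carbon ions, where the members had their highest median, none of the 6 T cell markers passed in either direction (median -0.02) and of the NK markers 4 of 5 genes rose and 0 fell (median 1.62). There 3159 of 13433 genes tested were higher and 2089 lower. In SCCVII at 6 h after carbon ions, where 7 members rose, of the macrophage markers 0 of 9 genes rose and 1 fell (median -0.08) and of the interferon gamma targets 9 of 12 genes rose and 0 fell (median 0.97). At that point 9.89% of all genes were higher, and 862 of 13433 were lower. Of the markers of plasmacytoid dendritic cells, a known source of interferon alpha, 3 of 6 genes rose and 1 fell (median 0.23) at day 3 after carbon ions, with summed intensities of 37.3 to 326 (median 54.5) against 42.2 to 249 (median 64) untreated, ranges that overlap widely. At 6 h all 6 neutrophil markers rose after each treatment, with a summed intensity of 48.8 to 349 (median 271) after carbon ions, 27.7 to 643 (median 334) after 50 Gy and 15.1 to 378 (median 192) after 30 Gy of gamma rays, against 4.81 to 100 (median 20.1) untreated. The shares of all genes higher at 6 h were 21%, 22.8% and 19.3% in that order of treatments.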

How the data were processed

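Total RNA, prepared with ISOGEN and RNeasy per the labels, was hybridised in 1 colour (Cy5) to 88 arrays, in 44 groups of 2. The deposited values are linear intensities, with a column for each array, and how the authors made them is not given in the sources used here. Some values lie below 0, and each array's median lies at 1.02 to 1.07, so the columns were already on a common scale. Intensities at or below 0 (0.149% of values, lowest -0.271) were set to missing and log2 taken, with no further normalisation. Of 36227 probes, 21615 carried 1 gene symbol, 681 several and 13931 none in the platform annotation, updated by Entrez number for 21487. Of a gene's probes the one with the highest mean was kept. Genes with values on under 80% of arrays or in the dimmest 25% were left out, which left 13465 genes.

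One limma fit (version 3.58.1, R 4.3.3, with the data.table package, version 1.17.8) gave each group a mean (44 residual and 7.30 prior degrees of freedom). Responses are irradiated minus untreated of the same tumour and arm, averaged over tumours with equal weight. P-values are two-sided, Benjamini-Hochberg adjusted over all genes tested, and values under 0.05 passed. The fit was tested on simulated data. Summaries and plots used Python 3.11.15, numpy 2.4.6, pandas 2.3.3 and matplotlib 3.10.9. Genes named are the 10 members, genes of the pathway lists by role or by the largest day 3 response to carbon ions, and the 8 genes most like the members. The members and lists were chosen with earlier results of these data known, so counts over them are descriptions. Alternatives covered normalisation, the offset before the log, the dim filter, the probe rule, the arrays fitted, the prior, the untreated baseline, the replicate block, and leaving out arrays or tumours.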

Additional observations from a re-analysis of the deposited data

Results flagged for a closer look

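The response to carbon ions differed between the 4 tumours by the moderated F test for the values given here, each as the span on the log2 scale between the tumour with the highest and the tumour with the lowest response. At 6 h the GTPases spanned 1.56 (Mx1) and 2.34 (Mx2), Rsad2 spanned 1.18, and the OAS-like genes spanned 1.14 (Oasl1) and 2.02 (Oasl2). Ifit1 spanned 2.28, Ifit2 0.83 and Usp18 2.21. SCCVII held the highest 6 h response for all 8 of these genes, while Isg15 did not pass.

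At day 1 the spans were 1.34 for Mx1, 1.87 for Mx2, 1.5 for Rsad2, 1.58 for Oasl1, 2.09 for Oasl2, 1.70 for Ifit1, 1.34 for Ifit2, 2.05 for Usp18 and 1.05 for Isg15. SCCVII was again highest, except for Isg15. At day 3, when all members had risen in every tumour, the spans were 1.36 for Mx1, 2.26 for Mx2, 0.87 for Rsad2, 1.69 for Oasl1, 1.20 for Oasl2, 2.21 for Ifit1, 0.72 for Ifit2 and 1.98 for Usp18. These spans use each tumour's untreated arrays of the carbon arm, which differed from those of the gamma arm.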

How the results depend on the processing

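The rise at day 3 (9 members after each treatment) and the day 3 minus 6 h differences kept their counts under the alternatives run, including quantile normalisation, array centring and another baseline, except that 6 of 6 were called with the dimmest 50% of genes left out. Isg15 at day 3 after 50 Gy was 0.32 with both arms' untreated arrays and 0.33 without NFSa, against 0.50. The fall at 6 h after 50 Gy covered 9 members, except 8 without NFSa, 6 without #8520 and 6 of 6 with the dimmest 50% left out; without #8520 Ifit2 was -0.65. Averages at 6 h and day 1 depended on the tumours in them. Without SCCVII carbon ions gave 2 risen and 3 fallen at 6 h and 1 risen and 7 fallen at day 1; Ifit1 (-0.38, -0.35) and Mx2 (-0.11, -0.36) were reversed at both times, Oasl2 (-0.20) and Usp18 (-0.083) at 6 h and Oasl1 (-0.17) at day 1, and Usp18 after 30 Gy of gamma rays at 6 h (0.019). Without #8520 30 Gy of gamma rays gave 3 risen and 1 fallen at 6 h, with Mx2 at 0.26, Oasl2 at 0.22, Ifit1 at 0.015, Ifit2 at 0.025 and Usp18 at 0.078, and none risen (0) and 7 fallen at day 1, with Mx1 at -0.062, Mx2 at -0.37, Oasl1 at -0.33 and Isg15 at -0.078. Also without #8520, carbon ions gave 0 fallen at day 1 (Ifit2 0.10), and Mx1 was 0.032 at 6 h after 50 Gy. Without NFSa 30 Gy at day 1 gave 9 risen and 0 fallen, with Rsad2 at 0.55, Oasl2 at 0.29, Ifit1 at 0.52, Ifit2 at 0.31 and Usp18 at 0.59; 50 Gy at day 1 gave 1 risen and 3 fallen, with Mx1 at 0.17, Mx2 at 0.23 and Rsad2 at 0.17; and carbon ions at day 1 gave 5 risen and 1 fallen. Without NR-S1 5 rose after carbon ions at day 1 (Oasl2 0.33), 0 after 30 Gy at 6 h (Mx1 -0.17) and 1 after 30 Gy at day 1 (Mx2 -0.012).

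With both arms' untreated arrays, carbon ions at day 1 gave 1 fallen and 30 Gy at day 1 gave 2 risen (Mx2 -0.027). Between the beams at day 1 those untreated arrays cancel, and 8 members differed in irradiated level. With no filter on dim genes 2 rose after 30 Gy at day 1. With the dimmest 50% of genes left out 6 members were tested, and the counts were 0 fallen for carbon ions at 6 h and day 1, 1 fallen after 30 Gy at day 1, 0 and 2 differing between the beams at day 1 and day 3, and 2 between the doses at day 3; fewer members tested accounts for part of this. The cause of the other changes was not tested.

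Leaving out single arrays, which left 1 array in the group, changed some counts. These were the calls for carbon ions and for 30 Gy of gamma rays at 6 h and day 1. The counts between the doses and between the beams at day 1 and day 3 changed too. So did the count of the F test at day 3 and that between untreated NR-S1 and SCCVII. With the replicate block, which was not possible for day 1 of the gamma arm, the counts were the same as without it (4 risen for carbon ions at 6 h, 9 fallen for 50 Gy at 6 h). Deviations of same-numbered arrays had low correlations by tumour and arm (median -0.06 to 0.16), with a highest single value of 0.39 in SCCVII of the gamma arm. Low values cannot exclude that the numbers pair the arrays. Day 1 of the gamma arm was not in this check, since the labels number its arrays 3 and 4 and all others 1 and 2. Whether they form a separate set is not stated. Of the single-gene values under the alternatives, 2252 kept direction and side of the threshold, 37 newly passed, 83 no longer passed and 31 reversed.

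With 2 arrays a group, the number of arrays limits precision. Signal over background was not analysed here. The arm and its untreated tumours cannot be told apart from the beam.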
